A study of Mus musculus with 50 samples.

Results

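Large myelinated sensory neurons were followed through 9 of their genes in the dorsal root ganglion, which lies beside the spinal cord and contains the somata of sensory neurons. The genes were Nefh, Nefm, Nefl, Pvalb, Calb1, Spp1, Tafa1, Cntnap2 and Ldhb, and every probe set of the array that carried one of these symbols and no other was taken. Of the 18193 genes with such a probe set, 8 were members, with 17 of the 45037 probe sets other than controls. Spp1, which encodes the secreted phosphoprotein osteopontin, was the symbol of none of the probe sets named for this work and was not analysed here. The ganglia came from naive wild-type mice of 25 inbred strains at 2 months of age, and each of the 50 arrays carried pooled RNA of 3 mice, labelled as 1 sex of a strain. A strain therefore had 1 pool labelled male and 1 labelled female, which were its only replicates, and nothing was given to any mouse. The strains were AKR/J, BALB/CByJ, 129S1/Sv1mJ, BTBT T+tf/J, SJL/J, c57BL/6J, NZW/LacJ, BUB/BnJ, CBA/J, KK/HIJ, SM/J, PL/J, C58/J, RIIIS/J, NZO/HILtJ, DBA/2J, C3H/HeJ, NOD/LtJ, C57BR/cdJ, FVB/NJ, P/J, MRL/MpJ, SWR/J, A/J and NON/LtJ, in the labels' own spelling.

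Neurofilaments are the intermediate filaments of axons, built from a light, a medium and a heavy subunit (Nefl, Nefm and Nefh), and their amount goes with the calibre of thick, myelinated axons. Within the large-diameter neurons, Pvalb encodes parvalbumin, a calcium-binding protein of muscle proprioceptors that fast skeletal muscle also makes in quantity, and Calb1 encodes calbindin, another calcium-binding protein that marks a class of touch receptors. Cntnap2 encodes a membrane protein that holds potassium channels beside the node of Ranvier, Tafa1 a small secreted chemokine-like protein, and Ldhb the lactate dehydrogenase subunit that favours conversion of lactate to pyruvate.

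All levels are log2(intensity + 1), a strain mean is the mean of its male and its female array, and differences are on the same log2 scale. Levels of different probe sets are not compared. Strain was tested with limma's moderated F test with sex as a term, and a probe set was called at a Benjamini-Hochberg adjusted p under 0.05 over all 22205 probe sets tested. In whole ganglia, fewer cells of a type and less RNA per cell cannot be told apart. The strains also share ancestry, so that 25 strain means are not fully independent.

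Several arrays stood apart. Xist, the transcript of the inactive X chromosome, was at 8.97 in the male PL/J array, 7.78 in male BTBT T+tf/J and 6.73 in male SWR/J, against 9.43 or more in all female arrays. Conversely, the Y-linked Eif2s3y was at 6.82 in the female SM/J array and at 3.46 or less in the other 24 female arrays, while the male arrays began at 6.37. Eif2s3y was nevertheless at 6.52 in male PL/J, and Xist at 9.43 in female SM/J. In an alternative the strains PL/J and SM/J were left out, while BTBT T+tf/J and SWR/J were kept. The counts stayed at 7 strain calls and 5 sex calls, but the sex calls were not all the same. Nefl 1454672_at lost its sex call (adjusted p = 0.109) and Cntnap2 1450758_at gained one (adjusted p = 0.0493). The 3′ minus 5′ signal of the Gapdh control probe sets, which follows RNA integrity and labelling, was 0.60 in male BTBT T+tf/J and 0.34 in female P/J, and the next array lay at -0.09. The lowest intensity was between 1.629 and 1.655 in the male arrays and between 1.726 and 1.744 in the female arrays, with no overlap, so that sex and the processing of the arrays cannot be told apart. Between 18703 and 19327 probe sets per array exceeded a log2 level of 4.

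Of the 17 member probe sets, 16 passed the filter on dim signal (log2 level above 4 in at least 2 arrays). The exception was Calb1 1458836_at, which stayed between 2.71 and 2.82 and was above 4 in 0 arrays. All 50 arrays were above 4 for the leading probe set (the one with the highest mean) of each of the 8 genes, so that all were detected throughout. The label was compared with 25 other large-neuron, touch-receptor and proprioceptor markers, of which 18 were tested. Their mean level ran from 6.97 to 7.68 over the arrays, and that of 10 pan-neuronal markers from 11.09 to 11.69.

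Strain was called for 7 of the 16 member probe sets, against 24.7% of all probe sets tested, and for 4 of the 8 leading probe sets, against 26.1% of the 11204 leading probe sets tested. These 4 were Calb1, Tafa1, Nefh and Cntnap2. The median range of strain means was 0.79 over the 8 leading probe sets and 0.82 over all genes tested.

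**Figure D1:**
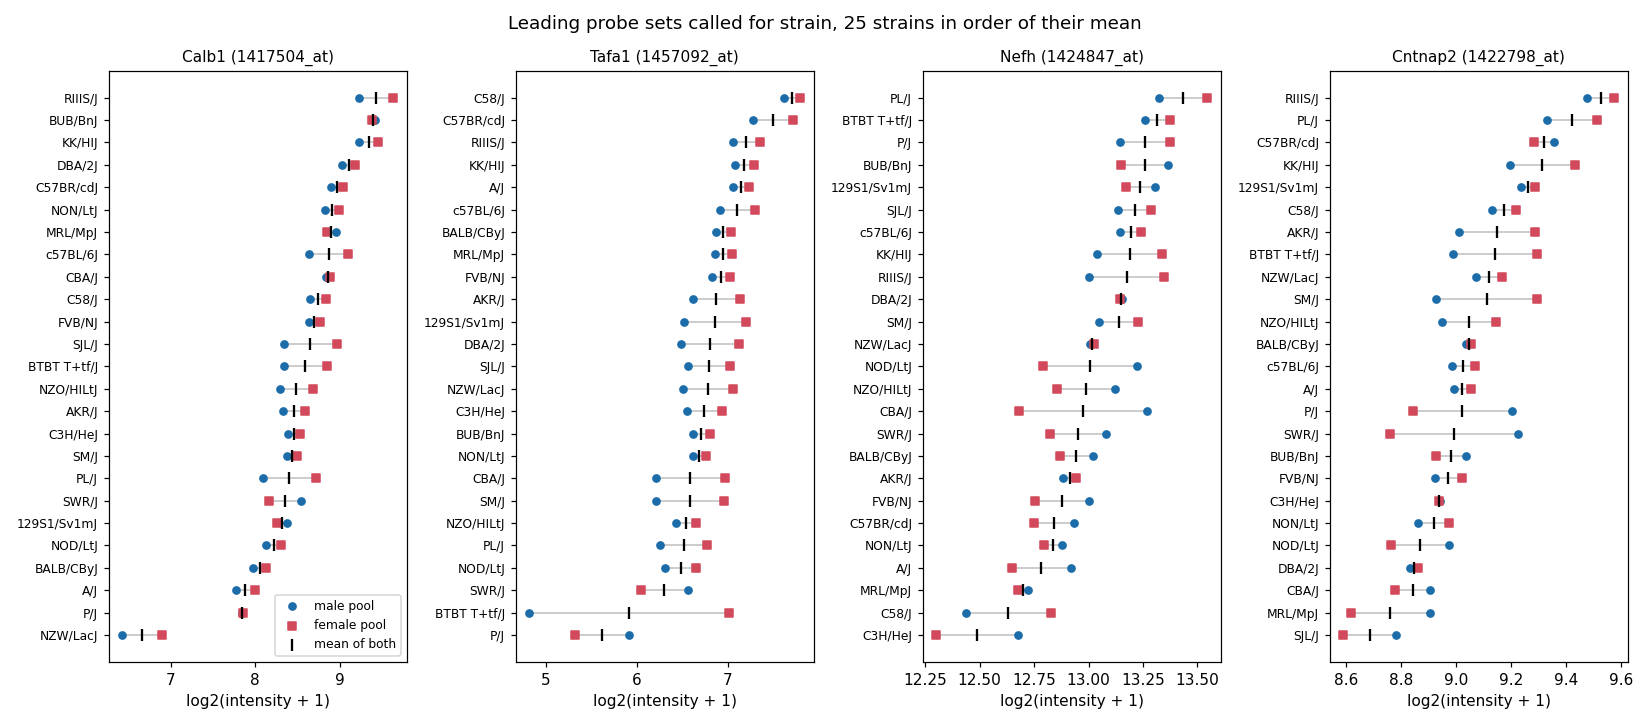
Levels of the leading probe sets of Calb1, Tafa1, Nefh and Cntnap2 as log2(intensity + 1) on the x axis, with the 25 strains down the page from the highest to the lowest strain mean. Circles are male pools, squares are female pools, ticks are their means and grey lines join both arrays of a strain. NZW/LacJ lies apart at the low end for Calb1, while the other genes grade from strain to strain.

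The heavy neurofilament subunit Nefh (1424847_at, the single probe set) had 12.30, 13.03 and 13.55 as lowest, median and highest array. PL/J was highest, with 13.32 in its male and 13.55 in its female pool, followed by BTBT T+tf/J with 13.26 and 13.37 and P/J with 13.14 and 13.37. At the low end, C3H/HeJ had 12.67 and 12.30, C58/J 12.44 and 12.83, and MRL/MpJ 12.72 and 12.67. Both arrays of each of the 3 highest strains lay above both arrays of each of the 3 lowest. These strains were picked by the means of the same arrays, which favours such a separation. The strain means spanned 0.95, a 1.93-fold range (adjusted p = 0.0137). Steps between neighbouring strains were small: the smallest difference of 2 strain means that passed an unadjusted p of 0.05 was 0.38, no neighbouring pair in the order was that far apart, and 73 of 300 strain pairs were. C3H/HeJ, at 12.49 against a mean of 13.04 in the other 24 strains, differed by -0.55 ± 0.13 (SE, adjusted p = 0.0141), below the difference of 1 that a single-strain call required.

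Nefm, the medium subunit, and Nefl, the light subunit, are neighbouring coding genes on chromosome 14, while Nefh lies on chromosome 11. Nefm (1422520_at) ranged over arrays from 13.22 through a median of 13.92 to 14.19. SM/J led with 14.12 in males and 14.14 in females, and SWR/J was lowest with 13.99 and 13.22, so that the male SWR/J array was above the median and the female one the lowest of all. In P/J the female array was also far below the male one, with 13.92 in males and 13.31 in females. Nefm strain means spanned 0.52 and the gene was not called (adjusted p = 0.233). Without the male SWR/J array the range was 0.89 and the adjusted p 0.0215, the single left-out array that gave a call.

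Nefl had 2 probe sets that ordered the strains differently. The leading one (1426255_at) ran from 13.70 through 14.01 to 14.20 over the arrays and was highest in PL/J, with 14.09 in males and 14.20 in females. Its lowest strain was A/J with 13.80 and 13.70. The span of 0.39 was not called (adjusted p = 0.108). Settings other than the main one did call it: log2(value + 16) gave an adjusted p of 0.0154, no filter on dim probe sets 0.00129, and a trended and robust prior 0.00424. The second (1454672_at), with 11.71, 12.58 and 13.09 as lowest, median and highest array, spanned 1.03 and was called (adjusted p = 0.00959). PL/J was again highest at 12.97, and BTBT T+tf/J was lowest with 11.71 in males and 12.18 in females. Strain means of the 2 Nefl probe sets had a Pearson's r of 0.17 (permutation p = 0.415, rho 0.20), and BTBT T+tf/J, the lowest strain in the second, ranked 6th from the top in the leading one.

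Pvalb (1417653_at) ran over arrays from 9.39 through 9.80 to 10.58. SWR/J, with 10.41 in males and 10.25 in females, and 129S1/Sv1mJ, with 10.16 and 10.47, were highest, followed by SM/J with 9.94 and 10.36. The lowest 3 were c57BL/6J with 9.74 and 9.45, DBA/2J with 9.55 and 9.71, and PL/J with 9.57 and 9.72. The widest gap within a strain was in NON/LtJ, whose male pool had the lowest and whose female pool had the highest Pvalb level of all 50 arrays. Its strain means spanned 0.74 and were not called (adjusted p = 0.260), and leaving out the male NON/LtJ array gave 0.0487.

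**Figure D2:**
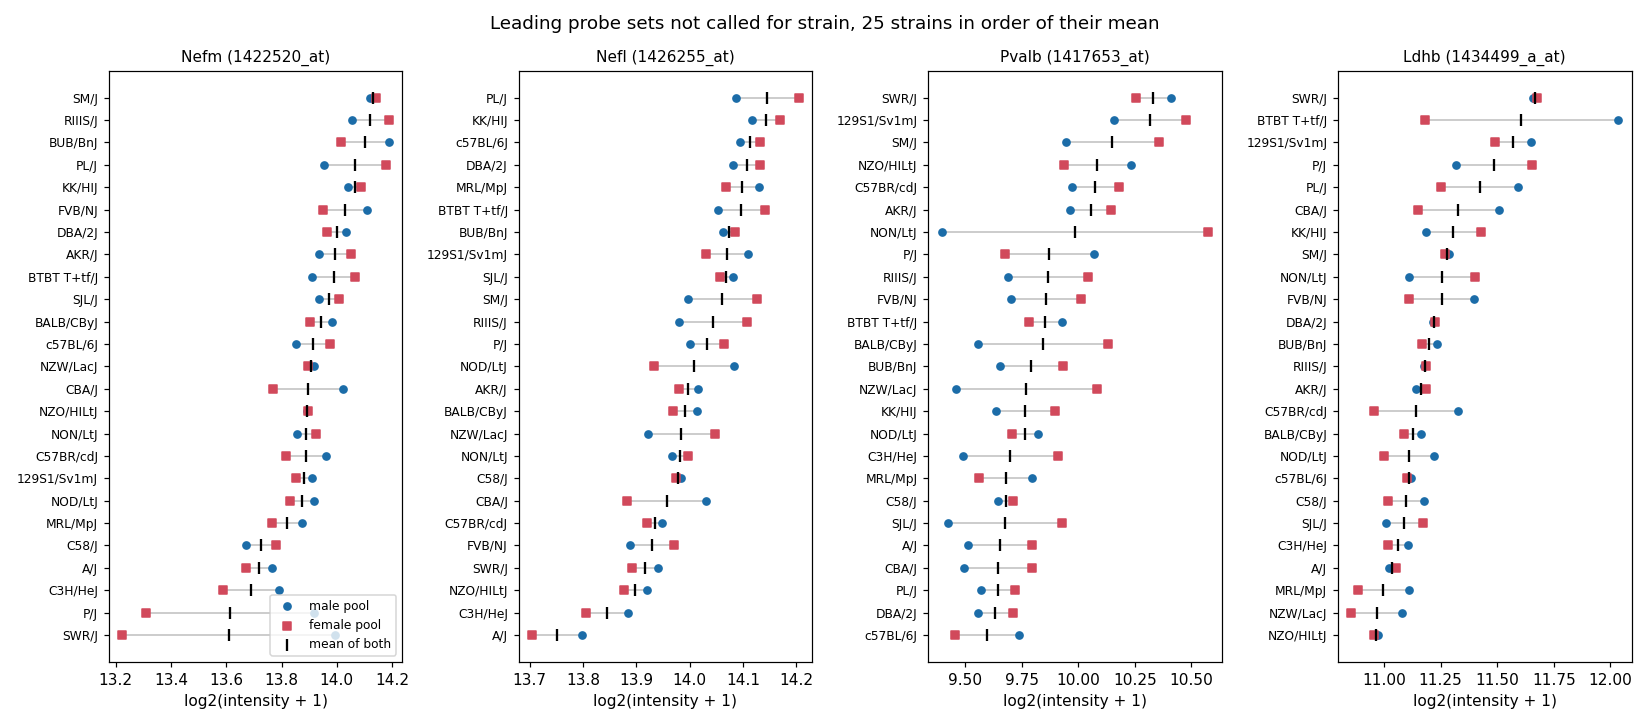
Levels of the leading probe sets of Nefm, Nefl, Pvalb and Ldhb as log2(intensity + 1) on the x axis, with the 25 strains down the page from the highest to the lowest strain mean. Circles are male pools, squares are female pools, ticks are their means and grey lines join both arrays of a strain. The male and the female array of NON/LtJ are the lowest and the highest Pvalb value, and the female SWR/J and P/J arrays lie far below their male partners for Nefm.

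Calb1 had the widest range of strain means among the leading probe sets of the members. Its leading probe set (1417504_at) had 6.43, 8.63 and 9.63 as lowest, median and highest array. The 3 highest strains were RIIIS/J, with 9.23 in males and 9.63 in females, BUB/BnJ with 9.41 and 9.38, and KK/HIJ with 9.22 and 9.46. NZW/LacJ was far below all others, with 6.43 in males and 6.90 in females, and the next strains up were P/J with 7.84 and 7.85 and A/J with 7.77 and 7.99. In the leading probe set the span of 2.76 was 6.79-fold (adjusted p = 2.13e-10). NZW/LacJ, at 6.66 against 8.64 in the other 24 strains, was called as a single strain at -1.98 ± 0.13 (SE, adjusted p = 5.32e-12). Over the 400 combinations of a member probe set and a strain, 2 were called lower (0.5%) and 1 higher (0.25%), against 0.644% and 0.497% of all 555125 combinations. Without the minimum difference, 9 were lower (2.25%) and 12 higher (3%), against 1.71% and 1.6% of all.

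The gap between NZW/LacJ and P/J was the only step between neighbours in the Calb1 order above the 0.36 that separates 2 strain means at an unadjusted p of 0.05. Below the difference of 1, RIIIS/J, BUB/BnJ, KK/HIJ and DBA/2J were higher than the other strains by 0.57 to 0.90, and P/J, A/J and BALB/CByJ lower by values from -0.75 to -0.53, each with an adjusted p of 0.0138 or less. The other 2 Calb1 probe sets tested were dim: 1448738_at was above 4 in 4 arrays and 1456934_at in 6, and their differences among strains are mostly differences below that floor. The NZW/LacJ mean was 3.05 in 1448738_at and 3.21 in 1456934_at, both below 4. These probe sets therefore cannot show whether Calb1 was lower in NZW/LacJ, and that result rests on the leading probe set alone. Whether the sequence under its probes differs between strains was not tested. The strain test called 1448738_at (range 1.32, adjusted p = 0.00158) and not 1456934_at (adjusted p = 0.114). In the fit BUB/BnJ was called for 1448738_at, with 4.61 in males and 4.12 in females, against a mean of 3.29 in the other strains, which lies below 4 and gives no exact size to the difference. The fitted difference was 1.08 and fell under the required 1 with log2(value + 16), at 0.53, and without the male BUB/BnJ array, at 0.80. Across sexes, the strain values of the 3 Calb1 probe sets had r of 0.40 to 0.62 with each other, read mostly from such dim values for 2 of them.

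Tafa1 (1457092_at) ran from 4.82 through 6.86 to 7.80 over the arrays, and strain means spanned 2.09, or 4.26-fold (adjusted p = 0.00703). C58/J, with 7.62 in males and 7.80 in females, and C57BR/cdJ, with 7.28 and 7.72, were highest, and RIIIS/J followed with 7.06 and 7.36. P/J was lowest with 5.92 and 5.32. BTBT T+tf/J came next, but its male pool had 4.82, the lowest value of all, and its female pool 7.02. P/J, at 5.62 against 6.83 in the other strains, was called at -1.21 ± 0.24 (SE, adjusted p = 0.0025). Without the female P/J array, 1 of the 2 with the highest Gapdh 3′ minus 5′ signal, the difference was -0.70 and the call was lost (adjusted p = 0.286).

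Cntnap2 had 3 probe sets. The leading one (1422798_at) ran over arrays from 8.59 through 9.03 to 9.58, and strain means spanned 0.84 (adjusted p = 0.0100). RIIIS/J had 9.48 in males and 9.58 in females, PL/J 9.33 and 9.51, and C57BR/cdJ 9.36 and 9.29. SJL/J was lowest with 8.78 and 8.59, below MRL/MpJ with 8.90 and 8.62 and CBA/J with 8.91 and 8.78. The 3 highest and the 3 lowest strains, picked by the means of the same arrays, did not overlap. Cntnap2 1437782_at, highest in P/J and lowest in MRL/MpJ, spanned 1.09 and was called (adjusted p = 0.0345), whereas 1450758_at spanned 1.64 and was not (adjusted p = 0.0617). Pairs of these probe sets had r of 0.48 to 0.63 over strain means and of 0.19 to 0.60 across sexes.

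Ldhb had 4 probe sets, none called. The leading one (1434499_a_at) ran over arrays from 10.86 through 11.18 to 12.03, and strain means spanned 0.70 (adjusted p = 0.0575). SWR/J was highest with 11.66 in males and 11.68 in females. BTBT T+tf/J came next with 12.03, the highest value of all, in males and 11.18 in females, followed by 129S1/Sv1mJ with 11.65 and 11.49. NZO/HILtJ with 10.97 and 10.96, NZW/LacJ with 11.08 and 10.86, and MRL/MpJ with 11.11 and 10.88 were lowest. The other 3 probe sets had adjusted p of 0.153 to 0.623, and over strain means, which share arrays, the 4 had r of 0.74 to 0.89 with each other. Male values of one against female values of another gave r of 0.00 to 0.59, and the male to female r of the other 3 Ldhb probe sets was 0.14, 0.35 and 0.00. Leaving out the male BTBT T+tf/J and the female P/J array gave the leading probe set a call (adjusted p = 0.0186).

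How far the male and the female pool agreed on the strain order varied by gene. Over 25 strains, the r of male with female values was 0.92 for Calb1, 0.72 for the leading Nefl probe set and 0.58 for the second, 0.63 for Cntnap2 and 0.56 for Nefh. It was 0.52 for Tafa1, with 0.71 once BTBT T+tf/J and C58/J, the strains farthest from the median of the male values, were left out. For Ldhb it was 0.43, for Nefm 0.35 and for Pvalb 0.19, and these last 3 did not pass the permutation test adjusted over the 16 probe sets (adjusted p = 0.0539, 0.117 and 0.416). Over all probe sets tested the median r was 0.24, with quartiles of 0.07 and 0.44, and over the 16 member probe sets it was 0.45. Calb1 was thus within the 0.950% of probe sets with the highest agreement, while Pvalb was below the median of all probe sets.

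Sex was called for 5 of the 16 member probe sets. The call was higher in males for 1, against 23.6% of all probe sets, and lower in males for 4, against 34% of all probe sets. Tafa1 averaged 6.59 in males and 6.97 in females, lower in males in 23 of 25 strains, with a difference of -0.38 ± 0.09 (SE, adjusted p = 0.00118). Calb1 1417504_at averaged 8.46 in males and 8.66 in females, a difference of -0.20 ± 0.05 (SE, adjusted p = 0.00111), and was higher in males in 4 strains. For Pvalb the means were 9.75 in males and 9.95 in females, with a difference of -0.20 ± 0.07 (SE, adjusted p = 0.0150). The second Nefl probe set differed by -0.11 (adjusted p = 0.0430) and Ldhb 1448237_x_at by 0.28 (adjusted p = 7.05e-05), with this Ldhb probe set higher in males in 22 strains. Other probe sets of these genes were not called. The leading Nefl probe set differed by -0.003 (adjusted p = 0.930). For Ldhb 1434499_a_at, 1455235_x_at and 1416183_a_at the differences were 0.09, -0.01 and -0.08 (adjusted p = 0.119, 0.870 and 0.225). The Pvalb and Nefl calls were lost with equal array medians (adjusted p = 0.0503 and 0.0988) and with quantile normalization of all arrays (0.0807 and 0.443). Without SM/J and PL/J the Nefl call was lost too (0.109), and Cntnap2 1450758_at was called higher in males (0.0493). Under quantile normalization, which called 57.1% of all probe sets for sex in either direction, 4 member probe sets were called higher and 2 lower in males, Nefm, the leading Ldhb and Cntnap2 1450758_at among the higher.

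**Figure D3:**
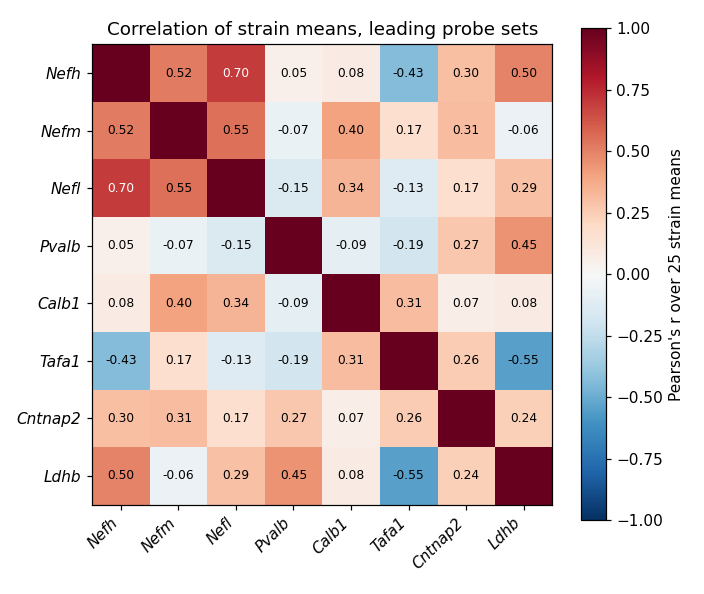
Pearson's r of strain means between the leading probe sets of the 8 genes, over 25 strains, with the colour scale from -1 (blue) to 1 (red). The 3 neurofilament genes are positive with each other (0.52 to 0.70), and near 0 or slightly negative with Pvalb (-0.15 to 0.05).

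Strain means of the leading Nefl probe set were correlated with those of Nefh and of Nefm, and no neurofilament gene was called with Pvalb or Calb1. These correlations were not tested against each other. Neither the leading Nefl probe set nor Nefm was itself called for strain (F test, adjusted p = 0.108 and 0.233). Of the 28 pairs of members, 3 passed a two-sided permutation test with 100000 resamples adjusted over the 28 pairs. Nefh and Nefl had r = 0.70 (rho 0.70, adjusted p = 0.0028), and Nefm and Nefl had r = 0.55 (rho 0.53, adjusted p = 0.0434). Nefh and Nefm had r = 0.52 (rho 0.48, permutation p = 0.00753, adjusted p = 0.0527). Without C3H/HeJ and PL/J, the strains farthest from the Nefh median, r was 0.59 for Nefh with Nefl and 0.40 for Nefh with Nefm. Without SWR/J and P/J, r of Nefm with Nefl was 0.62. Leaving out 1 strain at a time ended the Nefm and Nefl call for 14 of the 25 strains (highest adjusted p = 0.0978) and the Nefh and Nefl call for none.

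Both genes of such a pair were read from the same arrays, and the male and the female arrays differed in how closely Nefh and Nefl moved together. Their r was 0.40 in the 25 male arrays (adjusted p = 0.234) and 0.84 in the 25 female arrays. The differences between the male and the female array of a strain also went together, with r = 0.71. Male Nefh against female Nefl gave 0.35, and female Nefh against male Nefl 0.54. Across sexes 0 of the 28 pairs was called in either direction by the permutation test, with 1 pair each at an unadjusted p under 0.05. Taken relative to the pan-neuronal mean of each array, Nefh and Nefl had r = 0.24 (adjusted p = 0.463). With the mean of both Nefl probe sets in place of the leading one, r with Nefh was 0.42 (adjusted p = 0.135). For Nefm and Nefl, r was 0.23 in the male arrays (adjusted p = 0.518), 0.57 in the female arrays, and 0.40 and 0.36 across sexes. Relative to the pan-neuronal mean it was 0.44 (adjusted p = 0.172), and with the mean of both Nefl probe sets 0.52 (adjusted p = 0.0787).

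With Pvalb, r was 0.05 for Nefh, -0.07 for Nefm and -0.15 for Nefl (permutation p = 0.814, 0.746 and 0.484). The male and the female Pvalb values agreed little (r = 0.19), so that these values cannot show that Pvalb and the neurofilament genes vary independently. SWR/J, the highest strain for Pvalb, was the lowest for Nefm and 16th for Nefh, while PL/J, the highest for Nefh and Nefl, was 23rd for Pvalb. With Calb1, r was 0.08 for Nefh, 0.40 for Nefm and 0.34 for Nefl (permutation p = 0.702, 0.0465 and 0.0939, adjusted p = 0.804, 0.163 and 0.292). Nefm with Calb1 gained a call when NZW/LacJ was left out, with r = 0.54 (adjusted p = 0.0422). Pvalb and Calb1 themselves had r = -0.09 (adjusted p = 0.804). None of the 6 pairs of a neurofilament gene with Pvalb or Calb1 was called with all 25 strains, in the male arrays, in the female arrays or across sexes.

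**Figure D4:**
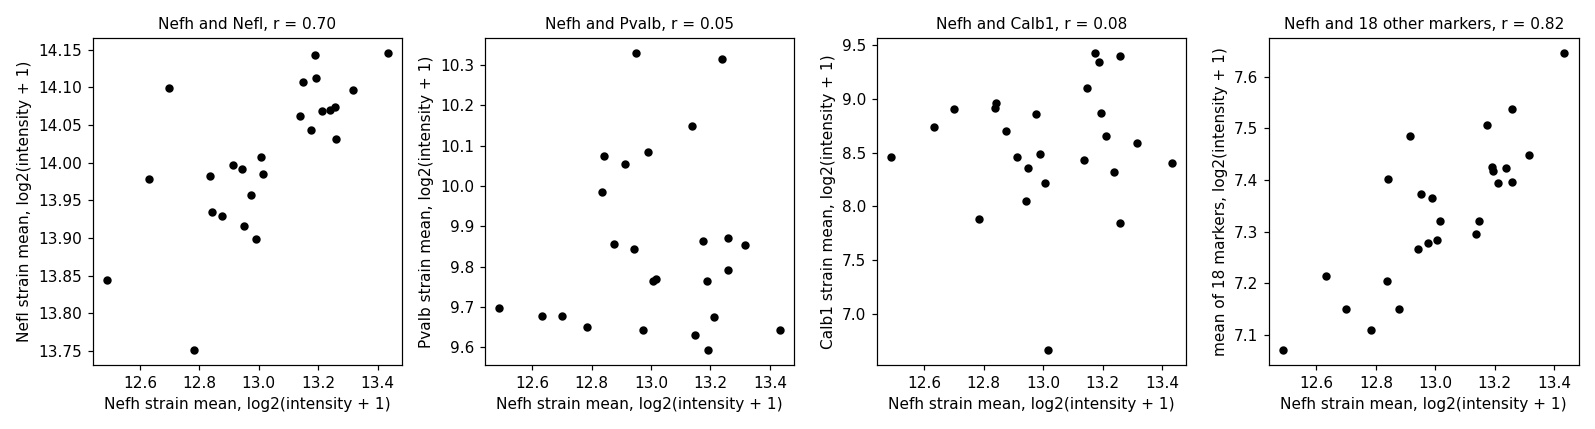
Strain means of Nefh on the x axis against those of Nefl, Pvalb, Calb1 and the mean of 18 other large-neuron markers on the y axes, all as log2(intensity + 1), 1 point for each of 25 strains. Nefl and the marker mean rise with Nefh (r = 0.70 and 0.82), Pvalb and Calb1 show no such slope (r = 0.05 and 0.08), and the single low point for Calb1 is NZW/LacJ.

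The strain means of Tafa1 and Ldhb ran in opposite directions, with r = -0.55 (rho -0.41, adjusted p = 0.0434). In the male arrays r was -0.60 and in the female arrays -0.57. The Gapdh 3′ minus 5′ signal had r of -0.64 with Tafa1 and 0.66 with Ldhb. Its part in this pair was not tested, beyond leaving out BTBT T+tf/J and P/J, the strains farthest from its median. Without BTBT T+tf/J and P/J r was -0.35 (adjusted p = 0.366), and leaving out 1 strain at a time ended the call for 15 of the 25. The call was also lost relative to the pan-neuronal mean (r = -0.35, adjusted p = 0.315). With the mean of all probe sets tested of a gene, r was -0.50 (adjusted p = 0.0829). With log2(value + 16) and after quantile normalization the adjusted p was 0.0527 and 0.0558. Differences between the male and the female array went in opposite directions too (r = -0.72), whereas across sexes r was -0.25 and -0.18. Both genes lie on chromosome 6, as does Cntnap2. The stretch from 250 bases before to 50 after the annotated start of each is shown for this pair (RefSeq, GRCm38.p6), in lower case with every CG dinucleotide, the site of DNA methylation in mammals, in capitals. Tafa1 lies on the plus strand at chr6:96112904-96113203 and Ldhb on the minus strand at chr6:142507908-142508207.
Tafa1: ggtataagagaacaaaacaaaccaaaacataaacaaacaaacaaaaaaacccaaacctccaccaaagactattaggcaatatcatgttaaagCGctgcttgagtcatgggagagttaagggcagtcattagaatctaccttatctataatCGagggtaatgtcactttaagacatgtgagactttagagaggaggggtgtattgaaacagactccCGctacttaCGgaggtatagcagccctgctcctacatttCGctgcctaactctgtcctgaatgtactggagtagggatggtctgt
Ldhb: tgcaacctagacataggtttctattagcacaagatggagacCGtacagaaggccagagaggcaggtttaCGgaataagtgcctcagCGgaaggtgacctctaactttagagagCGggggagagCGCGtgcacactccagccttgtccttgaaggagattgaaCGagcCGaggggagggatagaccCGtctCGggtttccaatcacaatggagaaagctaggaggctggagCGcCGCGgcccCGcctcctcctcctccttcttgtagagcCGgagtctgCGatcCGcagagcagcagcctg
The Tafa1 stretch held 5 CG dinucleotides and the Ldhb stretch 17, against a median of 7 over the 32851 such stretches in the table. Both were searched on both strands for 3 motifs, with 0 matches in either stretch. The TATA box, spelled TATAAA, was in 13.6% of all stretches in the table. The GC box GGGCGG was in 35.7% of them. The E-box CACGTG was in 7.15%.

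The Gapdh 3′ minus 5′ signal moved with several members over strains. Its r was 0.66 for the leading Ldhb probe set, -0.64 for Tafa1 and 0.60 for Nefh, each with an adjusted permutation p of 0.00661 over 16 probe sets. Leaving out BTBT T+tf/J and P/J, the strains farthest from the median, gave 0.50 for Ldhb, -0.27 for Tafa1 (permutation p = 0.212) and 0.59 for Nefh. Cntnap2 1437782_at, at 0.51, and 2 further Ldhb probe sets, 1448237_x_at at 0.50 and 1455235_x_at at 0.54, were called too. For this Cntnap2 probe set r was 0.06 in the male and 0.67 in the female arrays. For Ldhb 1448237_x_at it was 0.21 and 0.23, and for 1455235_x_at 0.47 and 0.17. Without the same 2 strains, r was 0.47 for Cntnap2 1437782_at. It was then 0.40 for Ldhb 1448237_x_at (permutation p = 0.0595) and 0.47 for 1455235_x_at. The 2 Nefl probe sets, which disagreed on the strain order, had r of opposite sign, 0.40 for the leading one (permutation p = 0.0478, adjusted p = 0.0850) and -0.43 for the second (permutation p = 0.0423, adjusted p = 0.0847). Without BTBT T+tf/J and P/J these were 0.44 and 0.20. For the leading Calb1 and Cntnap2 probe sets, Nefm and Pvalb r lay between -0.10 and 0.14. The part of this signal in the strain order of these genes was not tested, beyond leaving out the 2 arrays.

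**Figure D5:**
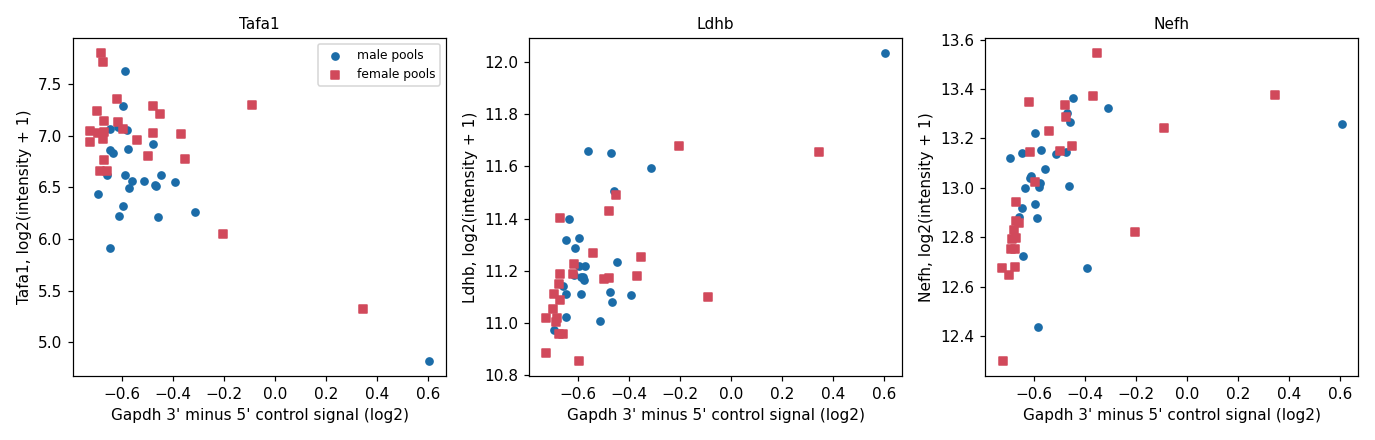
Array levels of Tafa1, Ldhb and Nefh as log2(intensity + 1) on the y axes against the 3′ minus 5′ difference of the Gapdh control probe sets (log2) on the x axis, 1 point for each of 50 arrays, with circles for male and squares for female pools. The male BTBT T+tf/J and the female P/J array lie at the far right, with the lowest Tafa1 levels and among the highest Ldhb levels.

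Members were set against the means of 17 marker lists, with the members left out, and 12 of these 136 pairs passed the permutation test adjusted over all 136. Of the 12, 6 were with Nefh. It went with the other large-neuron markers (r = 0.82), with the juxtaparanode and paranode genes (r = 0.80), with the partners and relatives of neurofilaments (r = 0.78) and with the pan-neuronal markers (r = 0.69). Nefh went against the blood list (r = -0.67) and the macrophage list (r = -0.60). Here too gene and list were read from the same arrays. Across sexes the r of Nefh was 0.54 and 0.48 with the large-neuron markers, 0.59 and 0.42 with the juxtaparanode and paranode genes, 0.67 and 0.40 with the filament partners and 0.52 and 0.30 with the pan-neuronal markers. With the blood list it was -0.37 and -0.47, and with the macrophage list -0.26 and -0.45. The differences between the male and the female array of a strain had r of 0.77 for Nefh with the large-neuron markers. Nefl was called with 4 lists, at 0.62 for filament partners, 0.59 for large-neuron markers, 0.57 for the TAFA family and 0.57 for pan-neuronal markers. Cntnap2 went with the large-neuron markers (r = 0.55, adjusted p = 0.0483) and Ldhb against the lactate and pyruvate genes (r = -0.64, adjusted p = 0.0136). Across sexes Nefl had r of 0.23 to 0.63 with its 4 lists, Cntnap2 0.27 and 0.55, and Ldhb -0.07 and -0.26. The Nefl calls with the TAFA family and the pan-neuronal markers and the Cntnap2 call were lost after quantile normalization (adjusted p = 0.214, 0.0520 and 0.0894) and without SM/J and PL/J (0.104, 0.0985 and 0.191). The Nefl call with filament partners was lost after quantile normalization (0.0643), that with large-neuron markers without SM/J and PL/J (0.0864), and the Ldhb call without BTBT T+tf/J and P/J (0.0519). Pvalb, Calb1, Nefm and Tafa1 were called with 0 lists by the permutation test, with an adjusted p of at least 0.101 and 6 pairs at an unadjusted p under 0.05. Pvalb and Calb1 had r of 0.20 and 0.09 with the large-neuron markers (adjusted p = 0.632 and 0.834). Nefm and Ldhb had 0.34 and 0.46 with them (adjusted p = 0.312 and 0.122). Tafa1 ran the other way, with r of -0.30 (adjusted p = 0.408). For Tafa1, r was -0.46 with the filament partners and -0.41 with the juxtaparanode and paranode genes (adjusted p = 0.132 and 0.217). With Nefh itself Tafa1 had r = -0.43, not called in the permutation test of member pairs (adjusted p = 0.124).

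Pvalb had its highest list correlation with the skeletal muscle markers, at r = 0.47 (rho 0.44, permutation p = 0.0187, adjusted p = 0.122), and at 0.61 without SM/J and c57BL/6J. Across sexes this r was -0.01 and 0.34, and the differences between the male and the female array of a strain had r = 0.16. The mean of the 12 muscle markers ran over arrays from 3.60 to 8.83, highest in the female SM/J array, where Pvalb was 10.36. Pvalb was higher in female NON/LtJ (10.58), female 129S1/Sv1mJ (10.47) and male SWR/J (10.41), with muscle means of 5.80, 4.52 and 3.88. The summed intensity of the muscle markers ran from 153.0 to 9683 with a median of 419.1. No muscle marker was at 0, and 11 of the 12 were highest in the female SM/J array, the exception being Myh4 in male NZO/HILtJ. Strain was called for 0 of the 12 muscle markers. Their part in the Pvalb values was not tested.

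Strain calls among other genes of these pathways are to be read against the 26.1% of all genes tested. Of the 18 large-neuron markers tested, 9 were called, with the highest and lowest strain means of the widest 3 as follows: Slc17a7, a vesicular glutamate transporter, at 6.91 in RIIIS/J and 4.85 in A/J, Cacna1h, a T-type calcium channel, at 8.11 in P/J and 6.18 in A/J, and Kcnc1, a fast potassium channel, at 7.56 in BTBT T+tf/J and 5.78 in C3H/HeJ. Of the 8 filament partners 4 were called, led by Plec and Dst, which link filaments to other structures, and the axonal motor Kif5a, and all 3 were lowest in NON/LtJ. Of the 9 juxtaparanode and paranode genes 3 were called (33.3%): Nfasc, Cntn2, the binding partner of Cntnap2, and Adam22. Cntn2 was highest in NZW/LacJ at 8.28 and lowest in A/J at 7.39. Of the 9 calcium-binding genes 6 were called, led by Hpca with a range of 3.64, S100a4 and Hpcal1. In the TAFA family 3 of 4 were called, Tafa3, Tafa4 and Tafa5, and Tafa4 is the coding gene next to Tafa1. Of the 6 lactate and pyruvate genes 2 were called (33.3%), the lactate carriers Slc16a7 and Slc16a1, and of the 5 osteopontin receptors 2, Cd44 and Itgav.

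Among the lists of other cells, 7 of 9 nociceptor markers were called, led by Gfra3, Trpv1 and P2rx3, and 3 of 10 pan-neuronal markers, Syt1, Map2 and Gap43. The pan-neuronal share, 30%, was near the 26.1% of all genes, as was the 28.6% of Schwann cell myelin with 2 of 7. Counts were 5 of 7 for satellite glia, 4 of 9 for macrophages and 4 of 4 for blood. They were 1 of 2 for bone and cartilage, 1 of 3 for spinal cord glia and 0 of 1 for spinal cord neurons. The strain test called 0 muscle genes although their median range, 3.89, exceeded the 0.82 of all genes.

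For each member the 3 genes with the most similar strain means were taken from the 11203 other genes tested, as a description over 25 strains. Nefh was followed by Syt2, a synaptic vesicle calcium sensor (r = 0.90, with 0.86 in male and 0.85 in female arrays), Camk1d (0.86) and Clasp1 (0.85). For Nefl they were Lpin1 (0.75), Chn2 and Prpsap1 (0.74 each), and for Nefm Spock1 (0.71), Hbs1l and Cpne6 (0.69 each). Tafa1 was nearest to Msmo1, an enzyme of sterol synthesis (0.83), Gtf2e2 (0.82) and Pafah1b2 (0.80), and Ldhb to Ppif (0.82), Rbbp4 (0.77) and Zfp622 (0.75). Cntnap2 was nearest to Pgr, Siah1a and Lrrc8c (0.69 to 0.71). The likeness was lowest for Calb1, with 9530068E07Rik (0.64), Lpin1 and Pip4p2 (0.63 each), and for Pvalb, with Zfp830 and Sncb (0.62 each) and Gpn2 (0.59).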

How the data were processed

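Gene expression was measured in 50 dorsal root ganglion samples on Affymetrix arrays. The deposited values are linear intensities, which the authors made with GCRMA (R 2.6.2), per the submitters' processing notes; the array number limits the precision. Here log2(intensity + 1) was analysed. Members, lists and alternatives were chosen with earlier results of these data known. Control probe sets (64) were left out, and probe sets with log2 above 4 in at least 2 arrays (22205 of 45037) entered 1 fit (limma 3.58.1, R 4.3.3) with strain and sex as terms, which pairs both pools of a strain through the strain name in the labels. A strain against the other 24 also needed a difference of at least 1. P-values of the fit set an effect against the spread between the pools of a strain beyond the common sex difference. Those of the permutation tests come from shuffled strains and do not use that spread. Correlations of strain means used permutation tests with 100000 resamples (numpy 2.4.6), whose smallest p is 1e-05. A gene stands for its brightest probe set. Named were the members, their 3 most similar genes, up to 3 called genes of each list by range, and the 3 highest and lowest strains. Symbols came from the platform's table of probe genes. The fit was tested on simulated data. Alternatives covered the scale, filters, normalization, prior, terms, single arrays and strains.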

Additional observations from a re-analysis of the deposited data

How the results depend on the processing

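Main counts were 7 member probe sets called for strain, 5 for sex and 3 in single strains, and 3 member pairs. Without the replicate block (no sex term for strain, no strain term for sex) they were 4 for strain (12.4% of all probe sets, against 24.7% with it) and 3 for sex (50.1%, against 57.6%): Tafa1 (adjusted p = 0.117), Nefl 1454672_at (0.0584) and Cntnap2 1437782_at (0.0895) lost their strain calls. Without a minimum difference 21 single-strain results were called. Pairs called numbered 5 in the female arrays (3 of them among the main 3), 3 in the male arrays (1), 2 relative to the pan-neuronal mean (0), 1 with log2(value + 16), 1 after quantile normalization, 1 with the mean of all probe sets of a gene (not among the main 3), 1 without SM/J and PL/J, and 0 in both settings across sexes, which were chosen after seeing the data, as were those without BTBT T+tf/J and P/J. Leaving out 1 array at a time gave 6 to 9 strain calls, 4 to 6 sex calls and 2 to 5 single-strain calls, and leaving out 1 strain gave 1 to 6 pairs. Of the 7 strain calls, only that of Cntnap2 1437782_at was lost when 1 array was left out, for the male or the female c57BL/6J, RIIIS/J or NON/LtJ, the male PL/J, or the female C3H/HeJ or MRL/MpJ array (adjusted p = 0.0538 to 0.0618); it was also lost with equal medians (0.0554) and no filter (0.0774). Ldhb 1434499_a_at gained a call without the male or female BTBT T+tf/J or NON/LtJ, male KK/HIJ or male P/J array (0.00259 to 0.0495). Calb1 1456934_at gained one without the male c57BL/6J or either DBA/2J array (0.0178 to 0.0404). Cntnap2 1450758_at gained one without either BTBT T+tf/J or P/J array, or the female CBA/J or NZO/HILtJ array (0.00471 to 0.0473). The sex call of Nefl 1454672_at was lost in 28 of 50 such fits. The pair Nefh and Nefl kept its call without any single strain, Nefm and Nefl lost it for 14 of 25. Among single results with other settings, 450 kept their side of the threshold, 49 lost a call and 16 gained one, and no direction of a called value reversed; the cause was not tested.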
